A study of Mus musculus with 18 samples.

Results

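Gene expression averaged over hippocampus, cerebellum and cortex was compared between 3 Aldh5a1-/- mice, here called KO, and 3 Wt mice, here called WT. The comparison used every array of the study: 18 of 18 arrays and 6 of 6 mice, each mouse giving 1 array of each region. The log2 signals of the 3 regions of a mouse were averaged into 1 value per gene, so the mouse was the replicate, and the KO and WT values were then compared across all genes. In the titles, numbers 3363, 3389 and 3403 belong to KO mice and numbers 3396, 3405 and 3406 to WT mice. The labels name no other allele and no treatment for either genotype. Age, sex and strain are not given in the sources used here. Aldh5a1 had 0 probe sets on the annotation used here, so the genotype rests on the labels alone.

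Aldh5a1 encodes succinate semialdehyde dehydrogenase, a mitochondrial enzyme that completes the breakdown of the inhibitory transmitter GABA by passing its carbon to succinate. Without it, succinate semialdehyde is reduced to gamma-hydroxybutyrate, and that acid and GABA build up in brain and body fluids. Cells short of amino acids or otherwise stressed phosphorylate the translation factor eIF2, which favours translation of the transcription factors Atf4 and Atf5 and leads to induction of amino acid transporters and enzymes of serine, asparagine and folate metabolism. Myelin is the lipid-rich sheath that oligodendrocytes wrap around axons, and its cholesterol is made within the brain.

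Each array was scaled to a common mean by the authors, and array medians ran from 53.5 to 64.8. In hippocampus they were higher in KO mice, at 64.1, 64.4 and 63.4 in 3363, 3389 and 3403. The WT mice 3396, 3405 and 3406 had 58.6, 61.2 and 61.0 there. In cerebellum and cortex the genotypes overlapped. Of the 18 arrays, 18 lay closest to other arrays of the region their title names, although the source label says hippocampus for all of them. RNA integrity was read from Gapdh control probes as signal at the 3' end over that at the 5' end, which averaged 0.810, 0.853 and 0.806 in the KO mice 3363, 3389 and 3403, against 0.845, 0.863 and 0.831 in the WT mice 3396, 3405 and 3406. The genotypes overlapped in this mean ratio and within hippocampus and cerebellum. In cortex they were apart, at 0.803, 0.812 and 0.797 in KO mice 3363, 3389 and 3403. The WT mice 3396, 3405 and 3406 had 0.924, 0.899 and 0.885 there. The part of this cortical difference in the values below was not tested. The same ratio for actin, averaged over regions, was 1.42 to 1.53 in KO and 1.36 to 1.59 in WT mice, which overlap.

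In the mean of the 3 regions, Atf5 and Nupr1, regulators of the cellular stress response, were higher in KO mice by 3.48-fold and 3.21-fold, and the ribosomal protein gene Rps19 by 1.38-fold. Genes of myelin and oligodendrocytes were lower, led by Gsn at 2.69-fold, with Mog, Mag, Mobp and Ndrg1 between 1.42-fold and 1.87-fold lower. Smyd2, Gamt and Ptgds were lower as well, by 2.28-fold, 1.65-fold and 1.37-fold. By limma with an intensity trend, 3 of 8382 probe sets rose (0.0358%) and 12 fell (0.143%) at a Benjamini-Hochberg adjusted p under 0.05, together 0.179%. The 15 probe sets named 11 genes, with Mobp on 4 of them, and 1 of the 15 was not assigned to 1 gene, at a log2 difference of -0.87 ± 0.12 (SE; adjusted p = 0.0266 in limma).

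The call rested on a few genes against a broad background of small differences. At an unadjusted p under 0.05 there were 442 higher (5.27%) and 408 lower probe sets (4.87%). The log2 difference lay between -0.27 and 0.33 for the central 90% of probe sets, whose median was 0.02. Averaging lowered the median standard error of a log2 difference to 0.114, against 0.184 within a single region. When each array was kept apart and the animal was a random replicate block, 10 probe sets rose and 28 fell. Of these, 2 of the higher and 11 of the lower ones were also called in the animal means, and without an intensity trend only Atf5 passed, with 1 higher and 0 lower (459 and 331 at an unadjusted p under 0.05). Scaling the arrays to equal medians turned the 3 higher and 12 lower into 2 and 21. At an unadjusted p under 0.05 it gave 247 higher and 666 lower, and the share of probe sets above 0 went from 54.6% to 42.4%. The balance of higher and lower probe sets thus depended on the scaling. Leaving out 1 mouse gave 3 higher and 14 lower without KO mouse 3363, 1 and 5 without 3389, and 1 and 2 without 3403, against 7 and 20 without WT mouse 3396, 2 and 1 without 3405, and 2 and 1 without 3406. Of the 11 genes, Atf5 and Gsn were those that passed whichever region was left out, and Atf5 was the one that passed without the filter on low values.

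**Figure D1:**
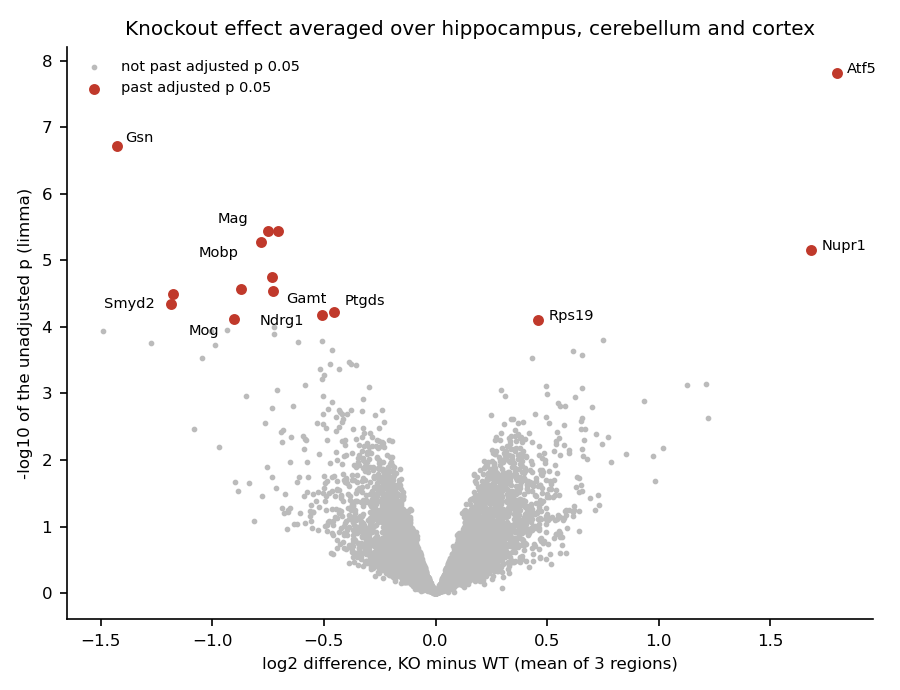
Each point is 1 of 8382 probe sets, with the log2 difference KO minus WT of the mean of 3 regions on the x axis and -log10 of limma's unadjusted p on the y axis. Red points passed an adjusted p of 0.05. Atf5 and Gsn stand highest, and 12 of the 15 red points lie on the lower side.

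Atf5, a leucine-zipper transcription factor whose translation is favoured when eIF2 is phosphorylated, had mean signals of 147, 182 and 166 in KO mice 3363, 3389 and 3403, against 48.4, 46.5 and 46.9 in WT mice 3396, 3405 and 3406. Every KO mouse stood far above every WT mouse, and the WT mice differed little among themselves, with 47.3 ± 1.01 (SD). The log2 difference was 1.80 ± 0.11 (SE, n = 3 mice each; limma adjusted p = 0.000128). Within the regions it was 2.41 ± 0.29 in hippocampus, 0.98 ± 0.29 in cerebellum and 2.01 ± 0.29 in cortex. The cerebellar difference alone did not pass (limma adjusted p = 0.174), yet its 3 KO arrays, at 137, 67.3 and 99.1, all lay above its 3 WT arrays, at 41.0, 47.5 and 61.5. Atf5 passed when any 1 mouse was left out (highest adjusted p = 0.00369) and when any 1 region was left out.

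Nupr1, a small stress-induced nuclear protein, had mean signals of 166, 185 and 138 in KO mice 3363, 3389 and 3403, against 51.6, 36.8 and 67.8 in WT mice 3396, 3405 and 3406. The genotypes did not overlap, which alone held for 8.59% of probe sets in the higher and 7.02% in the lower direction, and the log2 difference was 1.68 ± 0.20 (SE; limma adjusted p = 0.00973). This mean pooled unequal regional values: 3.23 ± 0.44 in hippocampus, 0.35 ± 0.44 in cerebellum and 1.47 ± 0.44 in cortex. The cerebellar arrays overlapped, with 95.4, 68.1 and 38.2 in KO against 39.3, 53.7 and 57.3 in WT. The hippocampal array of WT mouse 3405 read 7.03, under the floor of 9.46 to which low values were raised. The call was lost without KO mouse 3389 (adjusted p = 0.0841) or 3403 (0.0539), and without the arrays of any 1 region (0.0662 to 0.113). Without hippocampus arrays the log2 difference was 0.91.

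Atf4 and its partners of the CEBP family activate target genes through a composite site, here searched as TGATGNAA on both strands of the promoter windows of RefSeq (mouse build GRCm38.p6), which run from 250 bases before to 50 after each annotated start. The Nupr1 window and the windows of Atf5, the list's genes that rose, are shown 5′ to 3′ on the gene's own strand, with a match in capitals.
Nupr1, chr7:126625421-126625720, minus strand: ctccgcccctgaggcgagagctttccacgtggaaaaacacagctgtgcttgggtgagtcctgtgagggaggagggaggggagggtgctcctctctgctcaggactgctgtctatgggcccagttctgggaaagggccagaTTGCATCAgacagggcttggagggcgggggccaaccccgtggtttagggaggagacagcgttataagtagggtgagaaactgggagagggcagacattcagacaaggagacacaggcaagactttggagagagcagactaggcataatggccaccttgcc
Atf5 first start, chr7:44816609-44816908, minus strand: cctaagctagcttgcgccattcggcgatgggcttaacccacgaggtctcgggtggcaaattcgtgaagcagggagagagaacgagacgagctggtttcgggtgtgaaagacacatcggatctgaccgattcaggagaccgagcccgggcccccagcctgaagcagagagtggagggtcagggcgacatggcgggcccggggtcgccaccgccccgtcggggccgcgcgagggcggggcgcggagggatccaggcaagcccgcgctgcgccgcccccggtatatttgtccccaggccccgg
Atf5 second start, chr7:44815609-44815908, minus strand: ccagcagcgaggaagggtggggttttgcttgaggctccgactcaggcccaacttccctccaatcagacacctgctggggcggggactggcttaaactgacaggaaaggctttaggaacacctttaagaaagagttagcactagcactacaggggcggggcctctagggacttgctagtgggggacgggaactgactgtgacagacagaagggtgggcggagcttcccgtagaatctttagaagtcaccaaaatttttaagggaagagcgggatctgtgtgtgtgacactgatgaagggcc
The Nupr1 window held 1 match, TTGCATCA, which reads the motif on the opposite strand and begins 110 bases before the start. These letters were not found in either Atf5 window. Of all 32851 windows 3.97% held the motif, and of all genes with a window 4.51% did. Of the 20 stress list genes with a window, 4 did: Asns, Atf3, Nupr1 and Slc1a4. Only Nupr1 of these 4 passed in the mean of regions.

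The amino acid stress response list had 23 measured genes of 37. Of these 2 rose, Atf5 and Nupr1, 0 fell and 21 did not pass, where 3 genes rose and 6 fell among all 6249 genes measured with 1 probe set each. Values were above 0 for 20 of the 23 genes (87.0%), against 53.4% of all genes and 54.6% of all probe sets, and the list's median was 0.31 against 0.01. An unadjusted p under 0.05 was reached by 12 higher members (52.2%, against 5.25% of all genes) and 1 lower. In each KO mouse the summed signal of the list, 6655, 7291 and 7361, was above that of each WT mouse, 6076, 6071 and 5853. The list's median difference was 0.38 in hippocampus, 0.18 in cerebellum and 0.24 in cortex. This list and those below were chosen with earlier results of these data known. Their shares beside those of all genes are thus descriptions and no test of a list.

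The transporters and enzymes of this list came next by p without passing. Mthfd2, a mitochondrial enzyme of folate metabolism, had 172, 246 and 216 in KO mice 3363, 3389 and 3403, against 115, 128 and 131 in WT mice 3396, 3405 and 3406. Its log2 difference of 0.75 ± 0.13 (adjusted p = 0.0602) was nearly the same in the 3 regions, at 0.78, 0.66 and 0.81 in hippocampus, cerebellum and cortex, and its KO and WT arrays were apart in each. Slc3a2, the heavy chain of the large neutral amino acid transporters, had 1145 ± 114 in KO and 847 ± 42.6 in WT (SD, n = 3), a log2 difference of 0.43 ± 0.08 (adjusted p = 0.0830). Its regional differences were unequal, at 0.70 ± 0.11 in hippocampus (limma adjusted p = 0.0101), 0.14 ± 0.11 in cerebellum and 0.45 ± 0.11 in cortex. Eif4ebp1, a repressor of cap-dependent translation, had 43.4, 49.0 and 45.4 in KO mice against 27.6, 20.8 and 13.5 in WT mice, with 3 WT arrays under the floor, and a log2 difference of 1.21 ± 0.25 (adjusted p = 0.153). The mouse means of the genotypes did not overlap in any of these genes, but the cerebellar arrays of Slc3a2 and Eif4ebp1 did.

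Further members whose mouse means did not overlap, and which did not pass either, were spread over uptake, synthesis and signalling. Of the list's 23 measured members, 13 had all KO mouse means above all WT ones, against 8.59% of all probe sets. Psph, which completes serine synthesis, had 327 ± 4.29 in KO and 263 ± 5.21 in WT (adjusted p = 0.186). Slc7a3, a cationic amino acid transporter, had 40.6 ± 3.24 in KO and 25.9 ± 2.25 in WT (0.295). Slc7a5, the light chain partner of Slc3a2, had 604 ± 80.2 in KO and 482 ± 23.3 in WT (0.351), Atf3, a stress-induced transcription factor, 76.9 ± 11.1 in KO and 55.6 ± 5.63 in WT (0.351), and Ddit3, another such factor, 120 ± 13.6 in KO and 93.8 ± 12.8 in WT (0.404). Asns, asparagine synthetase, had 1089 ± 25.9 in KO and 1015 ± 48.2 in WT (adjusted p = 0.601), and its mouse means did not overlap either. The regions differed in sign for Slc7a5 (0.59, -0.21 and 0.57 in hippocampus, cerebellum and cortex), Asns (0.20, -0.13 and 0.24) and Ddit3 (0.82, 0.34 and -0.07). Psph, Slc7a3 and Atf3 were above 0 in each region. Other members did overlap, among them Psat1, Phgdh and Shmt2 with log2 differences of 0.20, 0.03 and 0.02. Atf4, the central factor of the pathway, had 569 ± 58.0 in KO and 536 ± 31.1 in WT (log2 difference 0.08 ± 0.09, adjusted p = 0.769). Ddit4, an inhibitor of the growth kinase mTORC1, had 340 ± 42.5 in KO and 426 ± 48.0 in WT (adjusted p = 0.382). Of the 3 members below 0, Ddit4 was the 1 with an unadjusted p under 0.05 in limma. These genes beyond the list's 2 calls were chosen after their values were seen. Of the 18 measured aminoacyl-tRNA synthetases, which load amino acids onto tRNA, 11 were above 0 with a median of 0.07 and 0 passed, Lars (0.22 ± 0.07) and Wars (0.28 ± 0.10) being those of lowest p, though other Wars probe sets had -0.29 and 0.05.

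Rps19, a protein of the small ribosomal subunit, had mean signals of 594, 583 and 528 in KO mice 3363, 3389 and 3403, against 429, 400.0 and 409 in WT mice 3396, 3405 and 3406. The genotypes were apart, with a log2 difference of 0.46 ± 0.07 (limma adjusted p = 0.0437). In the regions it was 0.10 ± 0.18 in hippocampus, 0.88 ± 0.18 in cerebellum and 0.40 ± 0.18 in cortex, none of which passed alone. Its hippocampal arrays overlapped, with 561, 528 and 409 in KO against 623, 424 and 371 in WT. Rps19 no longer passed without each mouse in turn but WT mouse 3396 (adjusted p up to 0.227), without cerebellum arrays (log2 difference 0.25, adjusted p = 0.504) and with the animal as a replicate block (0.101). The 23 other measured ribosomal protein genes did not pass, the list's median was -0.01, and 15 of the 24 members were below 0. Rps27, next by p, had 297 ± 17.8 in KO and 235 ± 16.05 in WT (adjusted p = 0.259).

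Among genes outside the lists, Zfp36l1, which binds AU-rich elements and promotes mRNA decay, had 245, 212 and 270 in KO mice 3363, 3389 and 3403, against 174, 134 and 154 in WT mice 3396, 3405 and 3406. Its log2 difference of 0.66 ± 0.12 did not pass (adjusted p = 0.0780), and it was largest in cerebellum, at 1.11 ± 0.22. Astn1, a neuronal adhesion protein of glial-guided migration, had 495, 693 and 409 in KO mice against 252, 326 and 163 in WT mice, a log2 difference of 1.13 ± 0.24 (adjusted p = 0.155). Single arrays of Astn1 differed widely within a group, such as 298, 939 and 206 in KO cortex.

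**Figure D2:**
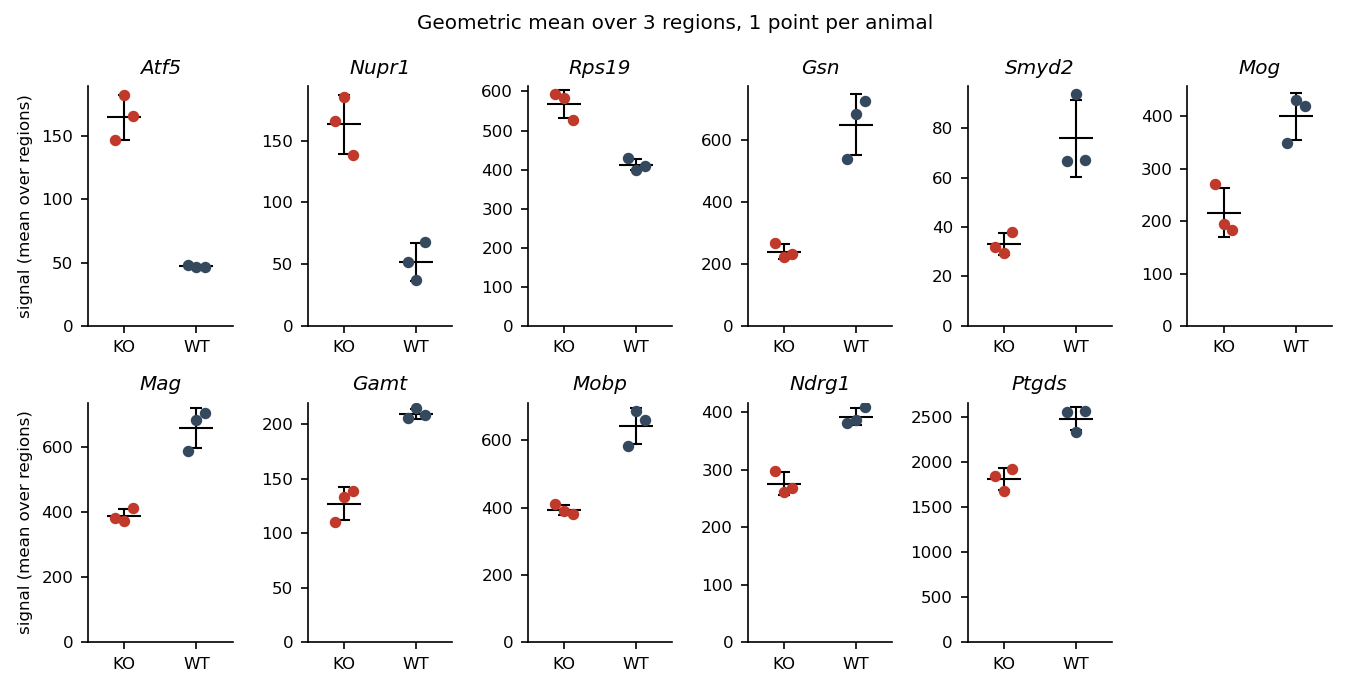
The signal of the 11 genes that passed is shown as the geometric mean over 3 regions (y axis, linear from 0), with 1 point per mouse, KO left in red and WT right in grey. Black marks give the mean and SD of 3 mice. The 3 KO and 3 WT mice do not overlap in any panel, which was the case for all 15 probe sets that passed.

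Gsn encodes gelsolin, which severs and caps actin filaments and is strongly expressed in oligodendrocytes. It had mean signals of 268, 221 and 232 in KO mice 3363, 3389 and 3403, against 539, 685 and 726 in WT mice 3396, 3405 and 3406. Every KO mouse was lower than every WT mouse, with a log2 difference of -1.43 ± 0.12 (SE; limma adjusted p = 0.000804). The regional differences were -1.81 ± 0.25 in hippocampus, -0.58 ± 0.25 in cerebellum and -1.89 ± 0.25 in cortex. In cerebellum the arrays read 554, 518 and 657 in KO against 845, 781 and 965 in WT, apart but not past the threshold alone (adjusted p = 0.344). Gsn passed when any 1 mouse was left out (highest adjusted p = 0.0137), but not without the filter on low values (0.203) or the intensity trend (0.0586). In tissue of mixed cells, fewer oligodendrocytes and less RNA per oligodendrocyte cannot be told apart, and this holds for the myelin genes that follow.

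The myelin sheath list had 9 measured genes of 18. Of these 3 fell, Mag, Mobp and Mog, 0 rose and 6 did not pass. Of the 9, 8 were below 0, against 45.4% of all probe sets, the median was -0.65 against 0.01 over all genes, and an unadjusted p under 0.05 was reached by 7 lower members (77.8%, against 5.12% of all genes). Summed over the list, the signal was 5806, 5023 and 5461 in KO mice 3363, 3389 and 3403, against 7316, 8704 and 8536 in WT mice 3396, 3405 and 3406. The list's median was -0.76 in hippocampus, -0.02 in cerebellum and -0.82 in cortex. The mean over regions thus held 2 regions with lower myelin transcripts and 1 with a median near 0.

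Mag, an adhesion molecule on the innermost myelin membrane, had mean signals of 382, 373 and 410.4 in KO mice 3363, 3389 and 3403, against 586, 681 and 701 in WT mice 3396, 3405 and 3406. The log2 difference was -0.75 ± 0.08 (limma adjusted p = 0.00767), from -1.06, -0.37 and -0.83 in hippocampus, cerebellum and cortex. Another Mag probe set, at 45.7 ± 7.62 in KO and 37.0 ± 6.23 in WT, had a log2 difference of 0.31 ± 0.19. Mag no longer passed without WT mouse 3405 (0.0558) or 3406 (0.0637).

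Mog, on the outermost myelin surface, had 271, 194 and 184 in KO mice 3363, 3389 and 3403, against 349, 431 and 419 in WT mice 3396, 3405 and 3406, a log2 difference of -0.90 ± 0.14 (limma adjusted p = 0.0437). That mean combined -1.24 ± 0.24 in hippocampus and -1.47 ± 0.24 in cortex with 0.00 ± 0.24 in cerebellum, where the arrays read 586, 577 and 519 in KO against 605, 519 and 559 in WT. Without cerebellum arrays the log2 difference was -1.35 (adjusted p = 0.128). The call was lost without KO mouse 3389 (0.141) or 3403 (0.182) and without WT mouse 3405 (0.208) or 3406 (0.226).

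Mobp, a small basic protein of compact myelin, passed on 4 of 4 measured probe sets, with log2 differences of -0.71 ± 0.08, -0.78 ± 0.09, -0.73 ± 0.10 and -1.18 ± 0.17 (limma adjusted p of 0.00767, 0.00893, 0.0213 and 0.0266). On the probe set of lowest p it had 410.4, 389 and 380.4 in KO mice 3363, 3389 and 3403, against 583, 686 and 659 in WT mice 3396, 3405 and 3406. In hippocampus and cortex that probe set was lower by -1.07 ± 0.18 and -1.30 ± 0.18. In cerebellum it was higher in KO by 0.25 ± 0.18, with 937, 910 and 818 on the KO arrays, all above the 774, 745 and 721 of the WT arrays, though this did not pass (adjusted p = 0.613). The other 3 probe sets had 0.11, -0.18 and -0.41 there. On its probe set of lowest p the call was lost without KO mouse 3403 (0.0539) and without WT mouse 3405 (0.0558) or 3406 (0.0637), without cortex arrays (log2 difference -0.41, adjusted p = 0.353) and without hippocampus arrays (-0.52, 0.0659), while without cerebellum arrays the difference was -1.18.

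The other sheath genes did not pass. Cldn11, which forms the tight junctions of myelin, had 658 ± 76.3 in KO and 932 ± 47.6 in WT (log2 difference -0.51 ± 0.09, adjusted p = 0.0602). Mbp, the main cytoplasmic myelin protein, had 2263 ± 105 in KO and 3131 ± 352 in WT (-0.46 ± 0.08, adjusted p = 0.0706). Mal, a proteolipid of the sheath, had 593, 309 and 365 in KO mice against 759, 940 and 822 in WT mice (-1.05 ± 0.20, adjusted p = 0.0830). The KO and WT mice were apart in these 3 genes, whereas Cd9 and Pmp22 overlapped between the genotypes, with log2 differences of -0.11 ± 0.09 and 0.09 ± 0.10.

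The list of oligodendrocyte lineage factors and enzymes had 16 measured genes of 30. Of these 2 fell, Gsn and Ndrg1, 0 rose and 14 did not pass, yet 16 of 16 were below 0, against 45.4% of all probe sets. The median was -0.35, against 0.01 over all genes, and 10 members were lower at an unadjusted p under 0.05 (62.5%, against 5.12% of all genes). Its summed signal was 4428, 4078 and 4428 in KO mice 3363, 3389 and 3403, against 5347, 5842 and 6065 in WT mice 3396, 3405 and 3406. Its median was -0.41, -0.23 and -0.48 in hippocampus, cerebellum and cortex.

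Ndrg1, a cytoplasmic protein whose loss causes a demyelinating neuropathy in people, had 299, 262 and 268 in KO mice 3363, 3389 and 3403, against 381, 387 and 409 in WT mice 3396, 3405 and 3406. Its log2 difference was -0.51 ± 0.08 (limma adjusted p = 0.0423) and nearly even over regions, at -0.41, -0.47 and -0.64 in hippocampus, cerebellum and cortex. Its KO and WT arrays were apart in each region. Another Ndrg1 probe set had -0.47 ± 0.09 (adjusted p = 0.0917), and the call was lost without any 1 mouse but KO mouse 3363 (adjusted p up to 0.226).

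Ugt8a, which makes the galactolipids of myelin, had 140.0, 178 and 187 in KO mice 3363, 3389 and 3403, against 255, 367 and 406 in WT mice 3396, 3405 and 3406, with a log2 difference of -1.01 ± 0.17 (adjusted p = 0.0514). Lpar1, a lysophosphatidic acid receptor of oligodendrocytes, had 103 ± 4.95 in KO and 171 ± 26.1 in WT (-0.73 ± 0.12). Nkx6-2, an oligodendrocyte transcription factor, had 38.2 ± 6.33 in KO and 72.6 ± 5.31 in WT (-0.93 ± 0.15). These 3 genes, chosen after their values were seen, missed the threshold narrowly. Sox10, the transcription factor shared by the whole lineage, had 205 ± 3.54 in KO and 242 ± 20.3 in WT (-0.24 ± 0.08, adjusted p = 0.403), and Pdgfra, a marker of oligodendrocyte precursors, 441 ± 65.9 in KO and 448 ± 43.4 in WT (-0.03 ± 0.11).

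**Figure D3:**
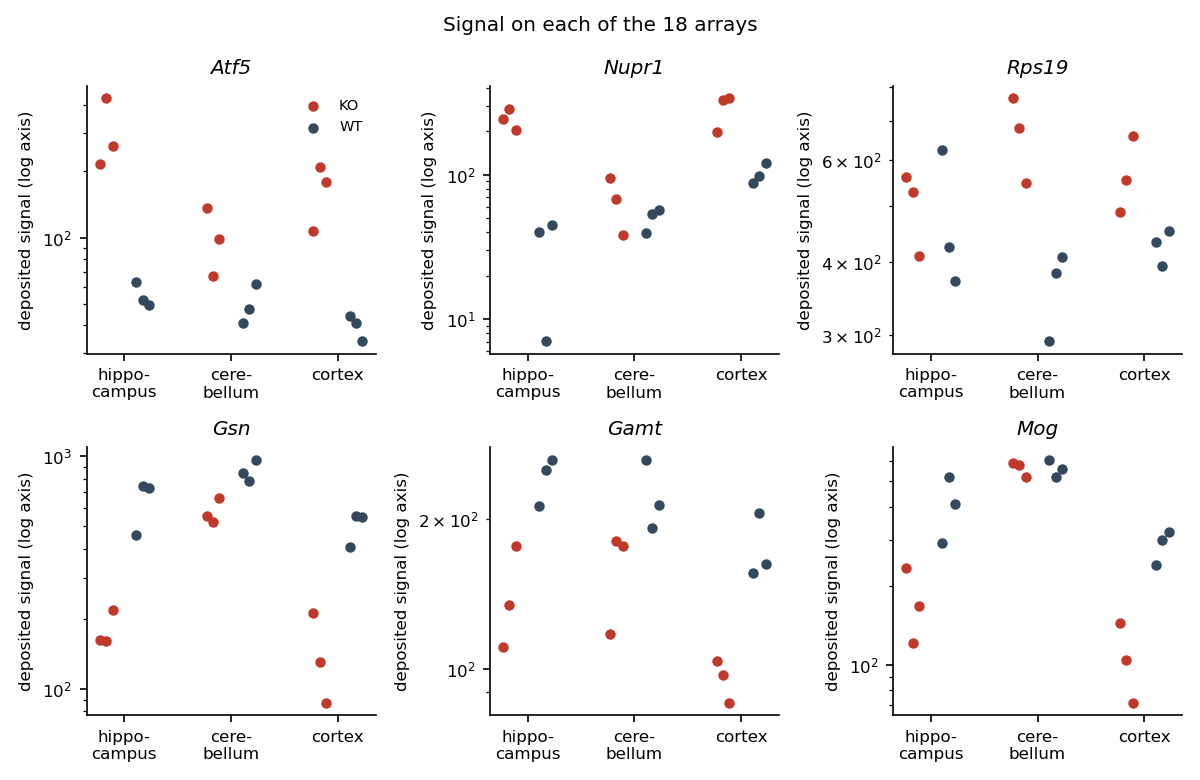
The deposited signal of 6 genes on each of the 18 arrays is shown by region on a log y axis, KO left in red and WT right in grey, with 1 point per mouse. The genotypes are apart in all 3 regions for Atf5, Gsn and Gamt, while Mog and Nupr1 overlap in cerebellum and Rps19 in hippocampus.

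Gamt, which methylates guanidinoacetate in the last step of creatine synthesis, had mean signals of 110.4, 133 and 139 in KO mice 3363, 3389 and 3403, against 206, 215 and 209 in WT mice 3396, 3405 and 3406. This gave a log2 difference of -0.73 ± 0.10 (limma adjusted p = 0.0266), from -0.81, -0.51 and -0.87 in hippocampus, cerebellum and cortex. The arrays were apart in each region, but no region passed alone, cortex coming nearest (adjusted p = 0.0642). Another Gamt probe set had 231 ± 10.8 in KO and 242 ± 23.2 in WT, a log2 difference of -0.06 ± 0.09. The call was lost without KO mouse 3389 (0.0841) or 3403 (0.0604) and without WT mouse 3405 (0.154) or 3406 (0.142).

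Smyd2, a lysine methyltransferase, had 32.0, 29.4 and 37.9 in KO mice 3363, 3389 and 3403, against 66.6, 93.8 and 67.3 in WT mice 3396, 3405 and 3406, a log2 difference of -1.19 ± 0.18 (limma adjusted p = 0.0348). Its difference was largest in cerebellum, at -1.85 ± 0.39, where the WT arrays themselves ranged from 52.2 to 192. Another Smyd2 probe set had 52.4 ± 4.90 in KO and 53.2 ± 3.29 in WT, a log2 difference of -0.03 ± 0.14. Smyd2 no longer passed without any 1 mouse but WT mouse 3396 (adjusted p up to 0.181).

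Ptgds, which makes prostaglandin D2 and is abundant in oligodendrocytes and meninges, had 1843, 1675 and 1916 in KO mice 3363, 3389 and 3403, against 2551, 2331 and 2563 in WT mice 3396, 3405 and 3406. The log2 difference was -0.46 ± 0.07 (limma adjusted p = 0.0411), yet the regions alone had adjusted p between 0.507 and 0.617 and hippocampal KO arrays ran from 938 to 2264. Other Ptgds probe sets had -0.20 ± 0.11 and -0.13 ± 0.12. The call was lost when any 1 mouse was left out (adjusted p up to 0.226) and with the animal as a replicate block (0.246). Ptgds is also made in choroid plexus, whose markers are given next.

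Markers of tissue that dissection can add or miss were read in the same means. Of 7 measured choroid plexus genes 6 were above 0 and 0 passed, with a median of 0.30 that combined -0.34 in hippocampus, 1.71 in cerebellum and -0.08 in cortex. Ttr, the transthyretin gene that defines this tissue, had 299, 555 and 922 in KO mice 3363, 3389 and 3403, against 971, 207 and 407 in WT mice 3396, 3405 and 3406, which overlap. The list's summed signal was 1413 to 2639 in KO and 1529 to 2801 in WT. Leaving out 1 mouse moved the median to 0.47 without KO mouse 3363 and 0.14 without 3403, against 0.72 without WT mouse 3396 and 0.01 without 3405. Cerebellar, forebrain and striatal markers had medians of 0.06, 0.00 and -0.26 over 11, 10 and 3 measured genes, with 0 calls. The part of these tissues in the values of Ptgds and the other genes was not tested.

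Cholesterol synthesis genes had no call in the mean of regions. Of 16 measured members of 22, 14 were below 0, against 45.4% of all probe sets. The median was -0.26, against 0.01 over all genes, and 7 were lower at an unadjusted p under 0.05 (43.8%, against 5.12% of all genes). Hmgcs1, which makes the pathway's precursor, had 574, 760.1 and 772 in KO mice 3363, 3389 and 3403, against 916, 978 and 899 in WT mice 3396, 3405 and 3406 (log2 difference -0.42 ± 0.11, adjusted p = 0.269). Idi1, which isomerises isopentenyl units, had 179, 275 and 299 in KO mice against 339, 386 and 384 in WT mice (-0.59 ± 0.16, adjusted p = 0.319). KO mouse 3363 was the lowest of the KO mice in both. The list's medians were -0.40, -0.18 and -0.31 in hippocampus, cerebellum and cortex.

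Fatty acid synthesis and desaturation genes were also below 0 for 9 of 11 measured members, against 45.4% of all probe sets, with a median of -0.10 and 0 calls. Elovl6, which lengthens fatty acids, had 221 ± 22.1 in KO and 277 ± 12.2 in WT (log2 difference -0.33 ± 0.09, adjusted p = 0.319), though another Elovl6 probe set had -0.15 ± 0.11. Scd2, a fatty acid desaturase, had 2975 ± 78.6 in KO and 3564 ± 406 in WT (-0.25 ± 0.08, adjusted p = 0.361), and its other probe set had -0.06 ± 0.06.

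Lists of glial activation had differences above 0 and no call. All 9 measured reactive astrocyte genes were above 0, from 0.02 for Lcn2, a secreted iron-carrier protein, against 53.4% of all genes. Their median was 0.18, against 0.01 over all genes, and 2 were higher at an unadjusted p under 0.05, against 5.25% of all genes. Without KO mouse 3403 the median was 0.28, and without hippocampus arrays 0.12. Osmr, the oncostatin M receptor, had 43.1, 56.8 and 54.1 in KO mice 3363, 3389 and 3403, against 33.0, 29.2 and 32.0 in WT mice 3396, 3405 and 3406 (log2 difference 0.70 ± 0.17, adjusted p = 0.229). Gfap, the astrocyte filament protein, had 242, 373 and 320.1 in KO mice against 274, 164 and 251 in WT mice, which overlap (0.45 ± 0.20, adjusted p = 0.475). Its regional values had opposite signs, at 0.99 in hippocampus, -0.33 in cerebellum and 0.68 in cortex.

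Of 14 measured microglia and leukocyte genes, 12 were above 0 (85.7%, against 53.4% of all genes), with a median of 0.17. At an unadjusted p under 0.05, 4 were higher (28.6%, against 5.25% of all genes). Without KO mouse 3363 the median was 0.25. Cd52, a leukocyte surface protein, had 52.6, 70.2 and 66.7 in KO mice 3363, 3389 and 3403, against 34.7, 40.9 and 44.9 in WT mice 3396, 3405 and 3406 (log2 difference 0.65 ± 0.16, adjusted p = 0.269). Cd68, a lysosomal protein of phagocytes, had 119 ± 8.73 in KO and 90.9 ± 6.48 in WT (0.38 ± 0.11, adjusted p = 0.319). The summed signal of the list overlapped between genotypes, at 2241 to 2584 in KO and 2158 to 2271 in WT, as KO mouse 3363 lay below WT mouse 3396. Markers of resting astrocytes had a median of -0.00, with 5 of 10 above 0. Among those chosen after their values were seen, the sodium bicarbonate cotransporter Slc4a4 had 162 ± 14.9 in KO and 131 ± 20.9 in WT (0.32 ± 0.13, adjusted p = 0.437), S100b, a calcium-binding protein, had 269 ± 30.0 in KO and 357 ± 58.3 in WT (-0.40 ± 0.12, adjusted p = 0.351), and the glycolytic enzyme Aldoc had 2361 ± 94.3 in KO and 2786 ± 65.2 in WT (-0.24 ± 0.06, adjusted p = 0.234).

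**Figure D4:**
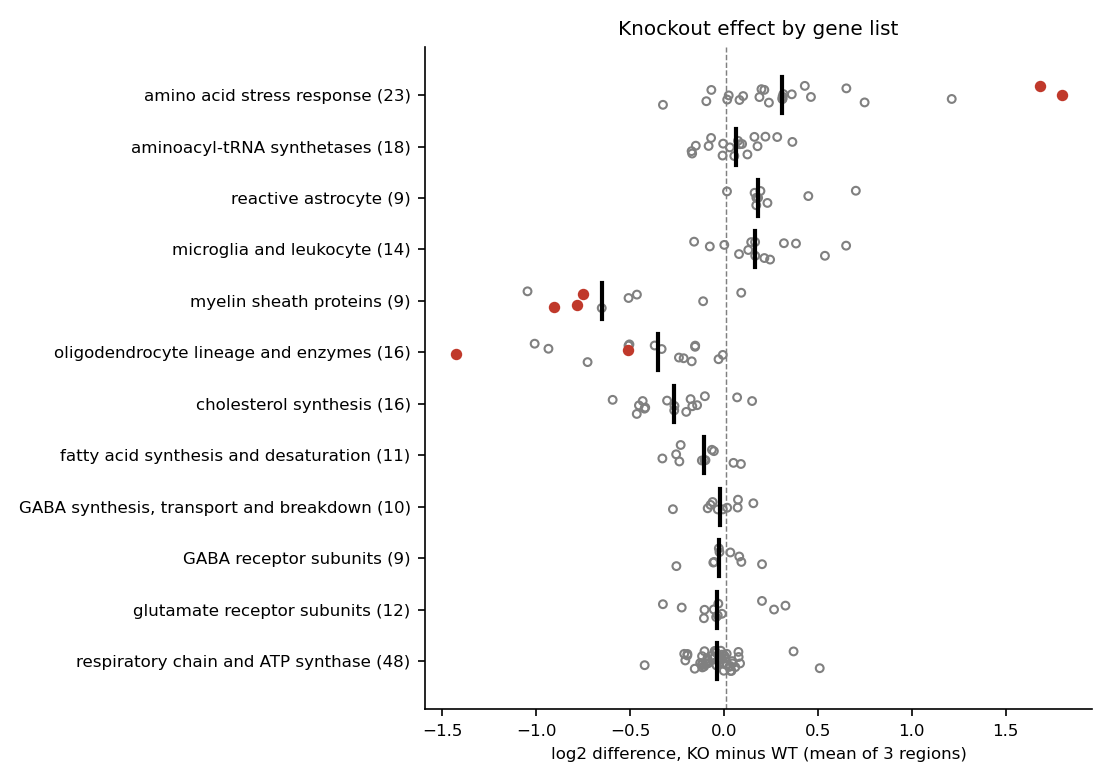
Points give the log2 difference KO minus WT (x axis) of each measured gene in 12 lists, with the number of genes in brackets. Red points passed, black bars are list medians and the dashed line is the median of all genes, 0.01. The amino acid stress list has its median at 0.31 and the myelin sheath list at -0.65, while the GABA and glutamate lists lie around 0.

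Genes of the transmitter whose breakdown the KO mice lack had small differences. Of 10 measured genes of GABA synthesis, transport and breakdown, 0 passed, 4 were above 0 and the median was -0.02. Gad1, which makes most GABA, had 1551 ± 117 in KO and 1472 ± 22.3 in WT, a log2 difference of 0.07 ± 0.07. Slc32a1, the vesicular GABA transporter, had 922 ± 49.1 in KO and 1131 ± 241 in WT (-0.27 ± 0.13, adjusted p = 0.520), and Akr1a1, an aldehyde reductase that can act on succinate semialdehyde, 1466 ± 67.7 in KO and 1556 ± 48.6 in WT (-0.09 ± 0.06). With 3 mice a genotype and a median standard error of 0.114 over all probe sets, the lack of calls does not show that these genes were unchanged. The smallest difference that the adjusted test could detect was not worked out for them.

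The 9 measured GABA receptor subunits had a median of -0.02 and 0 calls. Gabrd, the delta subunit of extrasynaptic receptors, had 93.7 ± 11.7 in KO and 111 ± 9.65 in WT (log2 difference -0.25 ± 0.12, adjusted p = 0.511). The 12 measured glutamate receptor subunits had a median of -0.04 and 0 calls. Among them Grin2c, an NMDA receptor subunit of cerebellar granule cells and astrocytes, had 225 ± 3.60 in KO and 282 ± 9.75 in WT (-0.32 ± 0.07, adjusted p = 0.198), below 0 in each region at -0.23, -0.41 and -0.33 in hippocampus, cerebellum and cortex.

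Syt5, a calcium sensor of vesicle release, was the gene of lowest p among 19 measured synaptic vesicle genes, of which 0 passed. It had 189 ± 26.6 in KO and 289 ± 19.2 in WT (log2 difference -0.62 ± 0.11, adjusted p = 0.0602). Its regional differences were -0.03 in hippocampus, -1.76 in cerebellum and -0.06 in cortex, so the mean carried the value of 1 region. Cacna1g, a low-voltage-activated calcium channel and 1 of 16 measured ion channel genes with 0 calls, likewise had -1.74 in hippocampus, 0.16 in cerebellum and -0.18 in cortex, with a mean of -0.59 ± 0.12 (adjusted p = 0.155).

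Energy and redox genes showed no call in the mean. The 48 measured genes of the respiratory chain and ATP synthase had a median of -0.04 with 32 below 0, and the 16 genes of the tricarboxylic acid cycle, which receives the succinate of GABA breakdown, had a median of 0.04. Cs, citrate synthase, had 801 ± 22.5 in KO and 898 ± 23.4 in WT (log2 difference -0.16 ± 0.06, adjusted p = 0.408). Of 30 measured genes of glutathione and oxidative defence, 15 were above 0. Hmox1, which degrades haem, had 305 ± 36.7 in KO and 215 ± 22.1 in WT (0.50 ± 0.11, adjusted p = 0.183), and Mgst1, a microsomal glutathione transferase, had 43.6 ± 3.49 in KO and 27.7 ± 4.82 in WT (0.66 ± 0.19, adjusted p = 0.319). The 27 heat shock and chaperone genes had a median of -0.10, and the 11 measured aldehyde dehydrogenases and reductases had -0.03, with 0 calls in each.

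**Figure D5:**
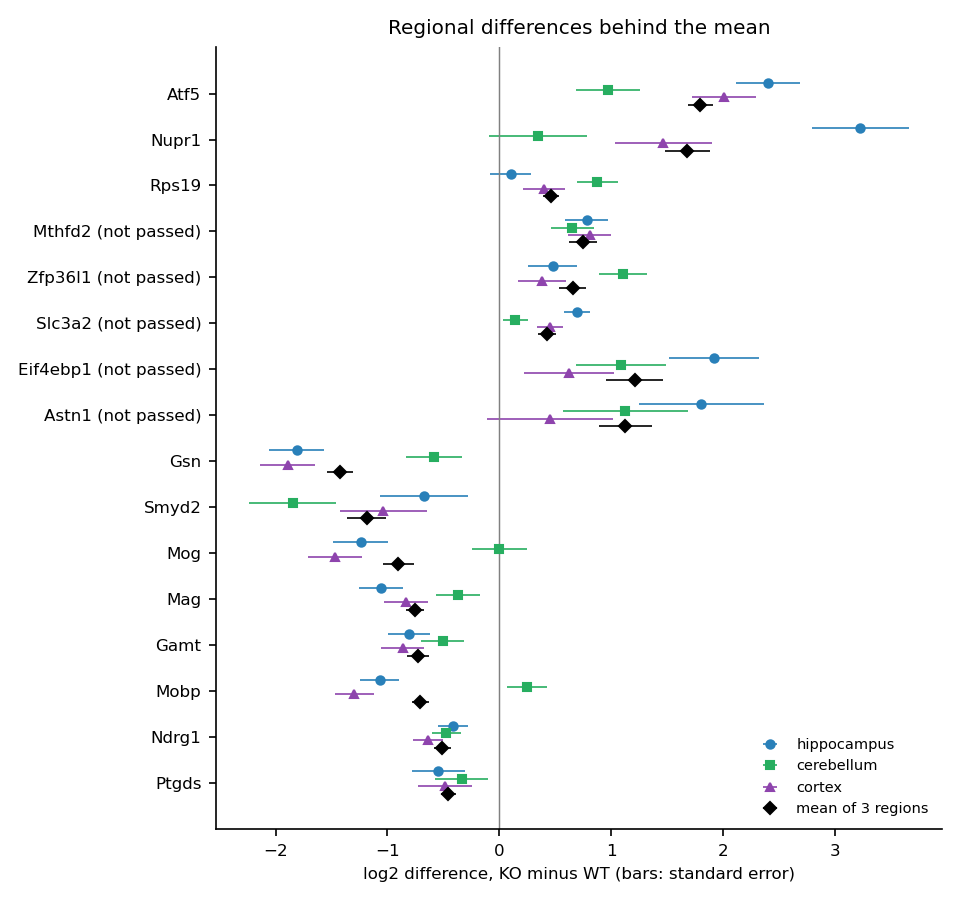
The log2 difference KO minus WT (x axis) of the 16 named genes is given for hippocampus, cerebellum, cortex and their mean, with bars for the standard error. Genes that did not pass in the mean are marked. Mthfd2, Gamt and Ndrg1 have similar values in the 3 regions, while the cerebellar values of Mog and Mobp, 0.00 and 0.25, stand apart from those of the other regions. Nupr1 differs between all 3, at 3.23 in hippocampus, 0.35 in cerebellum and 1.47 in cortex.

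A mean over regions describes a gene best where the regions were alike. Over all probe sets, 1589 had 3 regional differences above 0 (19.0%) and 1082 had 3 below 0 (12.9%). Of the 15 probe sets that passed, 12 had 3 differences of 1 sign, the exceptions being Mog and 2 Mobp probe sets. These 15 were called on the mean of the same differences, so their share is no independent support. A moderated F test of the genotype by region interaction, with the animal as a fixed block, called 4 of 8382 probe sets (0.0477%), for Mobp, Mal, Lst1 and Septin4, while 896 (10.7%) had an unadjusted p under 0.05. Without the intensity trend 0 were called, with 844 at an unadjusted p under 0.05. Mobp passed both in the mean and in the interaction, on the probe set with -1.05 ± 0.16 in hippocampus, 0.11 ± 0.16 in cerebellum and -1.40 ± 0.16 in cortex (interaction adjusted p = 0.0287 in limma). For Nsf, a vesicle fusion ATPase and the gene of next lowest p after these 4, the interaction did not pass (adjusted p = 0.0909), and its mean difference was -0.11 ± 0.10.

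The strictest pattern was that the 3 KO and 3 WT arrays were apart, in the same direction, in each of the 3 regions. It held for 8 higher (0.0954%) and 12 lower probe sets (0.143%), each of a different gene, of which 4 had passed in the mean: Atf5, Gsn, Gamt and Ndrg1. The others include genes of the groups above, Mthfd2, Osmr, Mgst1, Ugt8a, Lpar1 and Idi1, and are named here after their values were seen. Itgb4, an integrin chain of hemidesmosomes, had 19.2, 21.8 and 27.01 in KO mice 3363, 3389 and 3403, against 42.8, 73.8 and 79.2 in WT mice 3396, 3405 and 3406 (log2 difference -1.49 ± 0.25, adjusted p = 0.0514). Lamp2, a lysosomal membrane protein, had 111, 84.1 and 111 in KO mice against 70.5, 69.9 and 72.9 in WT mice, with 0.54, 0.57 and 0.42 in hippocampus, cerebellum and cortex. Slc19a1, the reduced folate carrier, had 93.2 ± 9.54 in KO and 73.3 ± 0.919 in WT, and Tyro3, a receptor tyrosine kinase, had 375 ± 22.2 in KO and 507 ± 44.7 in WT. Atp2a2, the calcium pump of the endoplasmic reticulum, had 969 ± 30.5 in KO and 1139 ± 22.4 in WT, with a log2 difference of -0.23 ± 0.06. None of these last 5 passed in the mean, with adjusted p from 0.0514 for Itgb4 to 0.378 for Slc19a1.

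Genes near Aldh5a1 were described because a targeted allele can carry neighbouring DNA of the strain in which it was made. Among 79 probe sets of 65 genes within 20 Mb of it on chromosome 13, 0 passed and 6 had an unadjusted p under 0.05 (7.59%, against 10.1% of all probe sets). Their median log2 difference was 0.03, with 51 above 0 and 28 below, where 54.6% of all probe sets were above 0. Those of lowest p were Idi1, given above, Acot13, an acyl-CoA thioesterase, at 264 ± 5.16 in KO and 221 ± 12.8 in WT, Jarid2, a Polycomb-associated protein, at 362 ± 21.3 in KO and 293 ± 31.1 in WT, and Psmg4, a proteasome assembly chaperone, at 217 ± 23.6 in KO and 175 ± 6.38 in WT. Their log2 differences other than that of Idi1 were 0.26, 0.31 and 0.31, with adjusted p between 0.351 and 0.359.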

How the data were processed

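Total RNA of hippocampus, cerebellum and cortex of 3 KO and 3 WT mice was hybridised to 18 Affymetrix mouse arrays, 1 per mouse and region; region, genotype and animal number were taken from the sample titles. The deposited table holds linear intensity per probe set, which the authors had scaled to a 2% trimmed mean of about 150.1 on each array, as the values themselves show; no source used here gives the software. Counting depth does not apply to arrays, and the number of mice limits the precision.

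Of 12488 probe sets, 66 controls were left out. Intensities under the 20th percentile of all values (9.46) were set to that value before log2 transformation, which compresses differences of dim genes. Only probe sets that exceeded the 40th percentile of 3 or more of the 18 arrays were kept (8382, of which 7554 had 1 gene symbol and named 6249 genes). Over the whole array, 10855 probe sets had 1 symbol, 396 had several and 1237 had none in the annotation.

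The log2 values of the 3 regions were averaged per mouse, and KO and WT were compared with limma 3.58.1 (R 4.3.3) with an intensity trend, 4 residual degrees of freedom, two-sided, and Benjamini-Hochberg adjustment over all kept probe sets at 0.05. Signals quoted per mouse are geometric means over regions. Regional differences came from 6 group means on 18 arrays (12 residual degrees of freedom); they make up the mean and are no independent support for it. For the interaction, animals entered limma as fixed blocks and a moderated F test was used. Pairing comes from the animal number: residuals of arrays of 1 animal correlated with a median r of 0.14 (lowest -0.08), against -0.02 between animals. An exact permutation test of 3 against 3 mice cannot give a p under 0.1. The fits were also run on simulated data, in which arrays of 1 animal shared no animal effect, so that run does not bear on the pairing.

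Genes were named when they passed and their KO and WT mouse means were apart, at most 15 a direction taken by size; where fewer than 8 did, those of lowest p completed 8 and are said not to have passed. In a list, at most 4 members that passed were named, or else the 2 of lowest p, and 6 genes were named for the interaction and 4 for the chromosome 13 neighbours. Lists were counted with the brightest probe set per gene and were not tested. The members, lists and rules were chosen with earlier results of these data known. Promoter windows were those of RefSeq for GRCm38.p6. Alternatives were no floor, 16 added in place of it, no filter, a 60th percentile filter, quantile normalization, median scaling, no trend, a robust prior, arithmetic means, each region or mouse left out, and 18 arrays with or without the animal as a replicate block.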

Additional observations from a re-analysis of the deposited data

Results flagged for a closer look

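The knockout effect differed between the regions behind the mean for 4 probe sets, by the test of the genotype by region interaction itself. Mobp, of the myelin sheath, had an interaction adjusted p of 0.0287 in limma, with log2 differences of -1.05 in hippocampus, 0.11 in cerebellum and -1.40 in cortex. Mal, another sheath protein, had an interaction adjusted p of 0.0287, with -1.39 ± 0.29 in hippocampus, -0.02 ± 0.29 in cerebellum and -1.73 ± 0.29 in cortex, and a mean of -1.05. Lst1, a leukocyte transcript, had an interaction adjusted p of 0.0287, with 0.28 ± 0.22 in hippocampus, -1.58 ± 0.22 in cerebellum and 0.82 ± 0.22 in cortex; its mean, at 52.0 in KO and 58.0 in WT, was -0.16 ± 0.12. Septin4, a filament-forming GTPase, had an interaction adjusted p of 0.0287 on a probe set with -1.67 ± 0.28 in hippocampus, 0.94 ± 0.28 in cerebellum and 0.27 ± 0.28 in cortex, and its mean was -0.15 ± 0.18. The other Septin4 probe set had -0.84, -0.20 and -0.48 in hippocampus, cerebellum and cortex, a mean of -0.51 ± 0.10 and an unadjusted interaction p of 0.0541 in limma. For Lst1 and this Septin4 probe set the mean over regions was near 0 while single regions were far from it.

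Among the probe sets of the named genes, regions also moved apart in 2 cases where the interaction over the 3 regions did not pass. In these, every KO array lay on opposite sides of the WT arrays in different regions. This pattern was looked for in the named genes only and was not counted over all probe sets. The Mobp probe set of lowest p in the mean had -1.07 in hippocampus and 0.25 in cerebellum (interaction adjusted p = 0.0909 in limma). Gabra6, which encodes a GABA-A subunit typical of cerebellar granule neurons, had 0.89 in hippocampus and -0.33 in cerebellum, with a mean of 0.20 ± 0.14 (adjusted p = 0.659) and 0.07 ± 0.12 on another probe set. Its interaction had an unadjusted p of 0.0150 in limma, among 896 probe sets under 0.05.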

How the results depend on the processing

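Atf5 passed under 20 of 20 alternatives and Gsn under 18 of 20, while the other 9 named genes that passed were lost under 6 or more. The counts of higher and lower probe sets, 3 and 12, became 1 and 0 with no intensity trend, 2 and 3 with no filter (none of these 3 lower ones called before), 2 and 21 with median scaling, 1 and 4 without cerebellum arrays and 1 and 2 without cortex arrays. With 18 arrays in place of means they were 10 and 28 with the animal as a replicate block and 22 and 54 with no replicate block. With 1 mouse left out they ran from 1 to 7 and from 1 to 20. The 4 interaction calls became 0 with no intensity trend and 2 with no filter (1244 of 12422 at an unadjusted p under 0.05). The amino acid stress median of 0.31 was 0.24 with 16 added in place of the floor, 0.21 with the 60th percentile filter, 0.26 with median scaling, 0.18 without hippocampus arrays, 0.37 without cerebellum arrays, 0.26 without cortex arrays and 0.24 to 0.32 with 1 mouse left out. The myelin sheath median of -0.65 was -0.50 with 16 added, -0.47 without cortex arrays and -0.83 to -0.50 with 1 mouse left out. The oligodendrocyte median of -0.35 was -0.48 without cerebellum arrays and -0.45 to -0.27 with 1 mouse left out. The reactive astrocyte median of 0.18 was 0.12 without hippocampus arrays, 0.28 without cerebellum arrays and 0.17 to 0.28 with 1 mouse left out, and the microglia median of 0.17 was 0.11 to 0.25. None of these 5 medians, nor that of cholesterol synthesis (-0.31 to -0.18), changed sign under an alternative. Signs reversed for Gabra6 (-0.31 with arithmetic means, -0.14 without hippocampus arrays), Zic1 (0.076 with arithmetic means), Slc4a5 (-0.12 without cerebellum arrays), Grik5 (0.0023 without cerebellum arrays) and Kcnh1 (0.024 without hippocampus arrays), none of which had passed. Over the named genes, 1123 of the repeated values kept sign and side of the threshold, 93 lost it, 28 gained it and 6 reversed. The cause was not tested where a call was lost. No depth is known for arrays; the dimmest named genes, such as Smyd2 and Eif4ebp1, lay nearest the floor.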

Other observations

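Neuropeptide genes were mixed in sign in the mean of regions. Of 17 measured members 8 were above 0, against 53.4% of all genes, and the median was -0.00. At an unadjusted p under 0.05, 4 were lower (23.5%, against 5.12% of all genes) and 0 higher (against 5.25%). Sst, the peptide of a class of inhibitory interneurons, had 356 ± 54.8 in KO and 505 ± 70.0 in WT (SD, n = 3), a log2 difference of -0.50 ± 0.12 (limma adjusted p = 0.245). Tac1, the precursor of substance P, had 27.2 ± 2.13 in KO and 44.0 ± 7.19 in WT (-0.69 ± 0.18, adjusted p = 0.297), with 3 KO arrays and 1 WT array under the floor. Of 14 measured glucocorticoid-induced genes 10 were below 0, against 45.4% of all probe sets, with a median of -0.12. Sgk1, a kinase induced by corticosteroids, had 521 ± 72.0 in KO and 700.4 ± 79.5 in WT (-0.43 ± 0.11, adjusted p = 0.289). The other 4 members were above 0, among them Zbtb16 (0.37 ± 0.14, adjusted p = 0.429) and Fkbp5 (0.30 ± 0.14, adjusted p = 0.510).

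Vascular endothelial genes had 8 of 11 below 0, against 45.4% of all probe sets, and a median of -0.15. It was -0.0035 with the 60th percentile filter, -0.048 without cortex arrays and -0.22 without WT mouse 3396. Cdh5, the adhesion molecule of endothelial junctions, had 44.4 ± 4.48 in KO and 59.0 ± 6.58 in WT (-0.41 ± 0.15, adjusted p = 0.405), and Emcn, an endothelial sialomucin, had 49.0 ± 7.97 in KO and 64.4 ± 2.49 in WT (-0.41 ± 0.15, adjusted p = 0.408). Immediate early genes, induced within minutes of neuronal activity, had a median of 0.02 over 15 measured members. Jun had 131 ± 4.95 in KO and 162 ± 13.1 in WT (-0.30 ± 0.09, adjusted p = 0.359), and Junb had 159 ± 31.3 in KO and 123.9 ± 15.001 in WT (0.35 ± 0.15, adjusted p = 0.455). No member of these 4 lists passed over all probe sets.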
